A study of Mus musculus with 6 samples.

Results

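The genes of V(D)J recombination examined here are the recombinase genes *Rag1* and *Rag2*, the DNA polymerase genes *Dntt*, *Polm* and *Poll*, and the end-joining genes *Prkdc*, *Xrcc4*, *Lig4*, *Dclre1c* and *Nhej1*. They were chosen by name, and all 10 have a row among the 13426 genes of the deposited RNA-seq table. The table holds 6 libraries from early LPre-B cells, which are early large pre-B cells of the mouse bone marrow, 3 from control (Ctrl) mice and 3 from *Upf1*-cKO mice. All mice carried *Upf1* Flox/Flox, an allele whose internal exons are flanked by loxP sites. Ctrl mice were Mb1 +/+ and carried no Cre, and *Upf1*-cKO mice were Mb1 Cre/+, in which Cre recombinase is expressed in the B lineage from the *Cd79a* (Mb1) locus. The groups therefore differ in the presence of the Cre knock-in as well as in *Upf1*. Per the study's methods the mice were age-matched adults of both sexes, the cells were sorted by surface markers that included Lineage-, B220+, sIgM-, CD43+, FSC hi and CD2-, and the libraries were independent biological replicates. The labels do not say whether a library came from 1 mouse or from pooled mice.

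V(D)J recombination assembles the variable exons of immunoglobulin genes. The RAG1 and RAG2 proteins form the recombinase, which cuts DNA at recombination signal sequences beside V, D and J segments and leaves hairpin-sealed coding ends. The DNA-dependent protein kinase catalytic subunit (*Prkdc*) activates the nuclease Artemis (*Dclre1c*), which opens the hairpins. Terminal deoxynucleotidyl transferase (TdT, *Dntt*) adds nucleotides without a template, DNA polymerases mu (*Polm*) and lambda (*Poll*) fill gaps, and XRCC4, DNA ligase IV (*Lig4*) and XLF (*Nhej1*) seal the joint. In early LPre-B cells the V segments of the heavy chain locus are joined to DJ segments that are already assembled, and the comparison asks how the transcriptome of this stage differs without UPF1, an RNA helicase of nonsense-mediated mRNA decay.

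The 250 bases before the annotated start sites of *Rag1*, *Rag2*, *Dntt* and *Polm* are shown because these genes had the largest rises and the largest fall among the 10. Sequences are from RefSeq (GRCm38.p6), which held an entry for 8 of the 10 genes, and are written 5′ to 3′ on the strand of the gene. The windows lie at chr2:101649533-101649782 (minus strand) for *Rag1*, chr2:101624462-101624711 (plus strand) for *Rag2*, chr19:41029025-41029274 (plus strand) for *Dntt* and chr11:5838017-5838266 (minus strand) for *Polm*. They overlap no annotated exon, and the *Polm* window lies within the annotated span of that gene. Capitals mark matches, on either strand, to the E-box CANNTG, the FOXO motif GTAAACA, the Ikaros motif TGGGAA, the EBF motif CCCNNGGG, the ETS motif GGAAGT or the AP-1 motif TGAGTCA.
Rag1: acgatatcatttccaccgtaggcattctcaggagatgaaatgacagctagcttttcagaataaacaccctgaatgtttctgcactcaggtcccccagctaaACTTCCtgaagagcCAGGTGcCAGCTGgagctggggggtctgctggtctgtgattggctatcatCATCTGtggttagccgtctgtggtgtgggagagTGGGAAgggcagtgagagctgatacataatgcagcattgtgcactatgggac
Rag2: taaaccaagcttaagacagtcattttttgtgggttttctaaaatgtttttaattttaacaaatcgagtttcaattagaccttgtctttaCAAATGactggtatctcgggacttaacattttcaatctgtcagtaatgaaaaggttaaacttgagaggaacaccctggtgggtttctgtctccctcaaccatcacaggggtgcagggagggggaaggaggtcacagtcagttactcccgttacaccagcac
Dntt: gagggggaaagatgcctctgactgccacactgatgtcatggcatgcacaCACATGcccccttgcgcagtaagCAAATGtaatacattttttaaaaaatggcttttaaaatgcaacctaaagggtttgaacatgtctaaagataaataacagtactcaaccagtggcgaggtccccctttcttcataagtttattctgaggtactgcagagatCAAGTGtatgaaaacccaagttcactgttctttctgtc
Polm: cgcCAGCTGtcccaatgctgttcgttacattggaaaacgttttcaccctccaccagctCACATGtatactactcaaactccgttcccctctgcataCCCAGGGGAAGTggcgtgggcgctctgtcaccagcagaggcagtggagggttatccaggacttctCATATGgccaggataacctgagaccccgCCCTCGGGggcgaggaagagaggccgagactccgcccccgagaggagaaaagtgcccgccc

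The *Rag1* window held 3 E-box matches, at -135, -128 and -85 bases from the start site, an Ikaros match at -52 and an ETS match at -149. The *Rag2* window held 1 E-box match, at -161. The *Dntt* window held 3 E-box matches, at -201, -178 and -38. The *Polm* window held 3 E-box matches, at -247, -192 and -89, and EBF matches at -154 and -61, with an ETS match at -148 that shares bases with the first of these. None of the 4 windows held the FOXO or the AP-1 letters. Among 32851 RefSeq windows of the same length, 66.2% held an E-box, 3.17% the FOXO, 21.6% the Ikaros, 11.8% the EBF, 19.7% the ETS and 4.46% the AP-1 letters. These matches are letters in a window and not measured binding.

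Values are normalised reads, that is reads scaled by an effective library size set by the authors. Recovered reads totalled 9732498 to 11006834 per library. The *Upf1* row was 241 ± 32.3 in Ctrl and 297 ± 12.7 in the libraries labelled *Upf1*-cKO (SD, n = 3; log2 fold change 0.31, limma adjusted p 0.00696), a call that was lost after median centring (0.20, adjusted p 0.0645). Reads from retained and removed exons are summed in this row, so it does not check the genotype, and every direction below follows the labels. The host RNAs *Gas5*, *Snhg12* and *Snhg15*, whose spliced forms are known targets of nonsense-mediated decay and which were chosen after their values were seen, were all higher in the libraries labelled *Upf1*-cKO. *Gas5* was 268 to 402 in Ctrl and 1540.2 to 1752 in *Upf1*-cKO, *Snhg12* 20.2 to 32.8 and 338 to 411, and *Snhg15* 11.4 to 15.1 and 136 to 165. B-lineage markers were present in both groups, among them *Vpreb1* (171 ± 7.92 in Ctrl and 226 ± 8.61 in *Upf1*-cKO), *Igll1* (299 ± 21.7 and 303 ± 13.9) and *Cd79b* (263 ± 40.8 and 248 ± 20.8). Others of them were lower in *Upf1*-cKO, *Cd24a* at 1323 ± 90.0 and 345 ± 25.5, *Vpreb3* at 79.0 ± 10.5 and 36.9 ± 2.40 and *Ptprc* at 277 ± 1.44 and 154 ± 5.59, and *Blnk* was higher (130 ± 15.5 and 205 ± 16.4). *Cd79a*, the gene that carries the Cre knock-in, was 221 ± 11.4 in Ctrl and 73.3 ± 1.85 in *Upf1*-cKO. Of the pro-B stage markers *Kit* and *Flt3* were higher and *Il7r* lower, and of 4 markers of later pre-B stages 3 were lower (*Il2ra*, *Cd2* and *Igkc*). The summed level of 10 myeloid genes was 67.8 to 160 in Ctrl and 311 to 431 in *Upf1*-cKO, highest among the Ctrl libraries in replicate 1. Of these genes 5 were higher and 1 lower, beside 27.7% and 25% of all genes. With 1 library left out, the calls of *S100a8*, *S100a9* and *Lyz2* were lost (limma adjusted p up to 0.0825, 0.0825 and 0.127). The call of *Itgam*, the lower gene, was lost without *Upf1*-cKO replicate 3 (adjusted p 0.103) and on total reads (0.195), and its groups overlapped. Of 8 T cell genes only *Thy1* had a row (summed level 3.82 to 7.83 in Ctrl and 7.88 to 11.9 in *Upf1*-cKO), of 7 erythroid genes 3 had a row and none passed the threshold, and of 6 natural killer and plasmacytoid dendritic cell genes 4 had a row (2.68 to 4.04 against 7.57 to 9.86). The part of these markers in the differences below was not tested. In bulk libraries, fewer cells of a type or stage and less RNA per cell cannot be told apart.

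The 10 genes did not move together. In *Upf1*-cKO cells *Rag1*, *Rag2*, *Dntt*, *Prkdc* and *Dclre1c* were higher, *Polm*, *Lig4* and *Nhej1* were lower, and *Poll* and *Xrcc4* did not pass the threshold of a limma adjusted p of 0.05. The 8 genes past the threshold stand beside 52.7% of all genes tested, the 5 higher beside 27.7% and the 3 lower beside 25%. When the log2 fold change also had to reach 1 in size, 3 of the 10 were higher (*Rag1*, *Rag2* and *Dntt*, beside 7.5% of all genes) and 2 were lower (*Polm* and *Lig4*, beside 3.54%). The Ctrl and *Upf1*-cKO values did not overlap for 8 of the 10 genes, and for 58.8% of all genes. Among all genes 3725 were higher and 3351 lower, a split that was 2992 to 4355 when each library was centred on its median and 5169 to 1936 when values were scaled to total reads. Under these scalings the 10 genes gave 5 higher and 3 lower, and 6 higher and 2 lower. Over all genes the median log2 fold change was 0.01 as reported, -0.098 after median centring and 0.19 on total reads. The largest row of a library held 16.4 to 23.8% of recovered reads in Ctrl and 13.8 to 16.5% in *Upf1*-cKO. Total reads include this row, so calls gained or lost on total reads also depend on it. Its part was not tested.

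**Figure D1:**
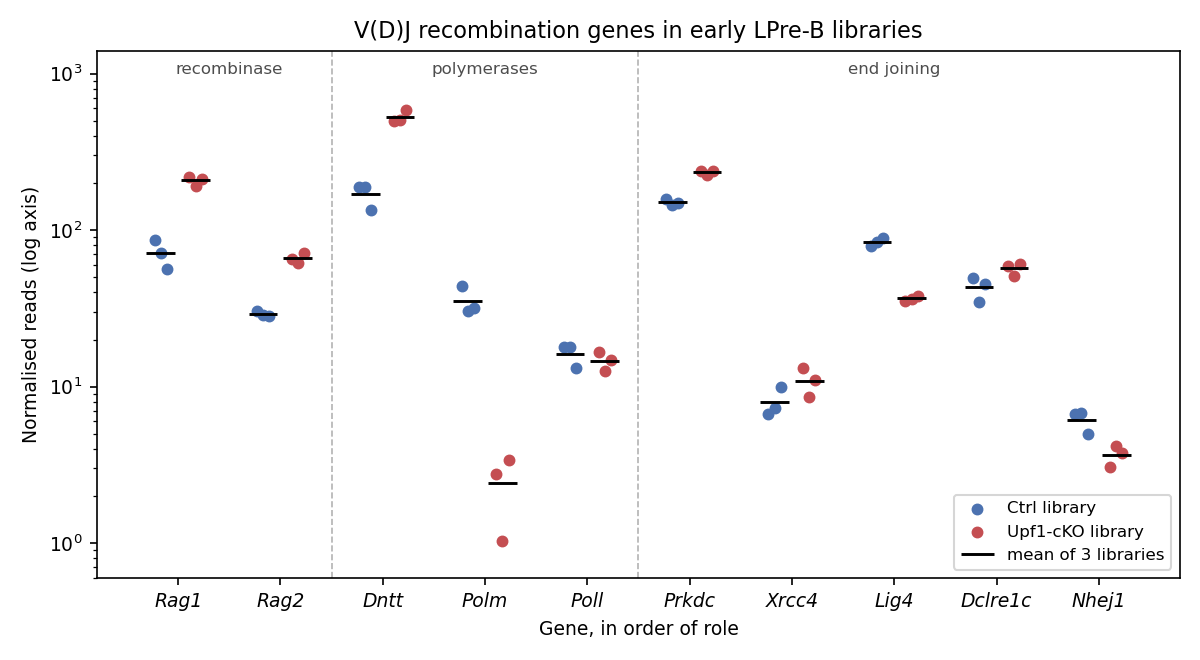
Normalised reads of the 10 genes (vertical log axis) in each of the 3 Ctrl and 3 *Upf1*-cKO libraries, with genes in order of role and lines at the group means. Groups are apart for every gene except *Poll* and *Xrcc4*, and the widest gap is in *Polm*, at 30.6 to 43.9 in Ctrl and 1.04 to 3.41 in *Upf1*-cKO.

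Both recombinase genes were higher in *Upf1*-cKO cells. *Rag1* (Entrez ID 19373), the subunit that holds the active site for DNA cleavage, lies on chromosome 2 from 101638252 to 101649532 on the minus strand and has 2 exons. It measured 86.9, 71.1 and 56.3 normalised reads in Ctrl replicates 1, 2 and 3, and 218, 192 and 213 in *Upf1*-cKO replicates 1, 2 and 3. Every *Upf1*-cKO library was above every Ctrl library, and the Ctrl values spread more widely (coefficient of variation 21.5% against 6.48%). The ratio of the means was 2.91, and the log2 fold change on the log2(value + 1) scale was 1.55 (SE 0.13, limma adjusted p 5.28e-07), the 334th highest of 13426.

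*Rag2* (Entrez ID 19374), the partner subunit that binds trimethylated histone H3 at active promoters, lies on chromosome 2 from 101624712 to 101632528 on the plus strand. It measured 30.3, 28.6 and 28.2 in Ctrl and 65.5, 61.6 and 71.6 in *Upf1*-cKO. The Ctrl replicates were tight, with a coefficient of variation of 3.93%, and the groups did not overlap. The ratio of the means was 2.28 and the log2 fold change 1.16 (SE 0.097, limma adjusted p 1.31e-08). Both genes kept their calls under every alternative tried.

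The genes face each other across 5.72 kb, with their start sites at the outer ends. *Rag1* rose by more than *Rag2*: the log2 ratio of *Rag1* to *Rag2* within a library was 1.52, 1.31 and 0.999 in Ctrl and 1.73, 1.64 and 1.58 in *Upf1*-cKO. These values do not overlap, although Ctrl replicate 1 lies just under the lowest *Upf1*-cKO library. The mean went from 1.28 ± 0.26 to 1.65 ± 0.078 (SD, n = 3), a difference of 0.37, or 1.30-fold. Over the 20 ways to assign 3 of the 6 libraries to a group, a two-sided exact permutation test gave p = 0.1, the smallest value this design allows, so it cannot pass 0.05. Leaving out each library in turn gave differences of 0.23 to 0.49.

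The polymerases went in different directions. *Dntt* (Entrez ID 21673, chromosome 19, 41029275 to 41059525, plus strand), which encodes TdT and is a marker of early lymphoid cells, measured 188, 188 and 135 in Ctrl and 494, 504 and 584 in *Upf1*-cKO. All *Upf1*-cKO libraries were above all Ctrl libraries, and Ctrl replicate 3 was the lowest. The ratio of the means was 3.10 and the log2 fold change 1.64 (SE 0.12, limma adjusted p 4.48e-07), the largest rise of the 10 and the 269th highest of 13426.

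*Polm* (Entrez ID 54125, chromosome 11, 5827860 to 5838832, minus strand), a template-dependent polymerase related to TdT that in the mouse acts at light chain joints, measured 43.9, 30.6 and 31.7 in Ctrl. In *Upf1*-cKO it measured 2.78, 1.04 and 3.41. These values rest on 413, 302 and 319 recovered reads in Ctrl and on 28, 11 and 40 in *Upf1*-cKO. The relative counting error is therefore largest in the *Upf1*-cKO libraries. The coefficient of variation there was 51.1%, a spread that is not counting error alone. The mean was 14.7-fold lower, and the log2 fold change of -3.47 (SE 0.26, limma adjusted p 2.67e-07) was the fifth lowest of all 13426. The pseudocount of 1 understates the change of a gene at this level: the log2 fold change was -4.03 without a pseudocount and -3.89 with edgeR on the recovered reads.

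*Poll* (Entrez ID 56626, chromosome 19, 45552275 to 45560564, minus strand) encodes the related polymerase lambda, which in the mouse acts at heavy chain joints. It measured 17.8, 17.8 and 13.1 in Ctrl and 16.5, 12.6 and 14.7 in *Upf1*-cKO, with overlapping groups. The log2 fold change was -0.14 (95% interval -0.46 to 0.18, limma adjusted p 0.471). The interval leaves room for a fall or a small rise, and the sign turned on total reads (0.055, adjusted p 0.783).

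Ratios between polymerases within a library do not depend on how libraries are scaled. The log2 ratio of *Dntt* to *Polm* reads was 2.10, 2.62 and 2.08 in Ctrl and 7.47, 8.92 and 7.42 in *Upf1*-cKO. In linear terms the ratio was 4.24 to 6.15 in Ctrl and 171 to 486 in *Upf1*-cKO. The difference of the means was 5.67 on the log2 scale, or 50.9-fold, and ranged from 5.18 to 5.93 when each library was left out. The log2 ratio of *Polm* to *Poll* went from 1.12 ± 0.30 to -2.76 ± 0.76 (SD, n = 3), a difference of -3.88, or 14.7-fold. In both ratios the groups did not overlap, and the exact two-sided permutation p was 0.1, the smallest possible.

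**Figure D2:**
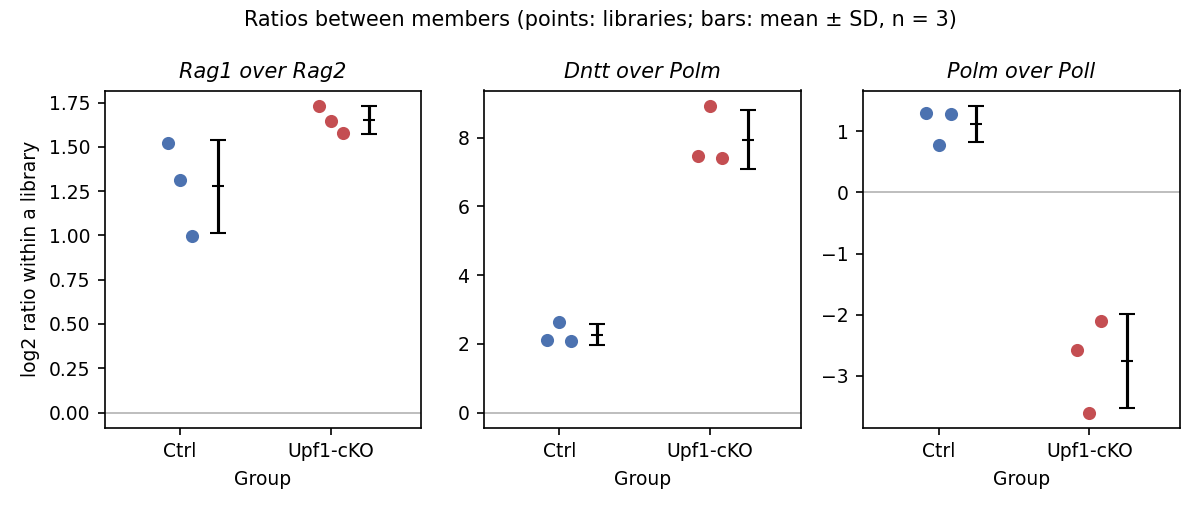
Log2 ratios of *Rag1* to *Rag2*, *Dntt* to *Polm* and *Polm* to *Poll* (vertical axes, scales differ between panels) within each Ctrl and *Upf1*-cKO library, with bars for mean ± SD (n = 3). The groups are apart in all 3 panels, by 0.37, 5.67 and -3.88 on the log2 scale.

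The end-joining genes were also divided. *Prkdc* (Entrez ID 19090, chromosome 16, 15637444 to 15842239, plus strand), with 86 exons in its longest transcript, measured 158, 145 and 148 in Ctrl and 239, 224 and 240 in *Upf1*-cKO. The groups did not overlap, and the coefficient of variation was 4.72% in Ctrl and 3.97% in *Upf1*-cKO. The ratio of the means was 1.56 and the log2 fold change 0.63 (SE 0.075, limma adjusted p 1.08e-06).

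*Dclre1c* (Entrez ID 227525, chromosome 2, 3424061 to 3474211, plus strand), the nuclease that acts with the *Prkdc* product, was higher by a smaller amount. It measured 49.7, 34.5 and 45.4 in Ctrl and 59.1, 50.6 and 61.0 in *Upf1*-cKO, so the lowest *Upf1*-cKO library lay just above the highest Ctrl library. The log2 fold change was 0.40 (SE 0.12, limma adjusted p 0.00937). The call was lost without Ctrl replicate 2 (0.25, adjusted p 0.0608), without *Upf1*-cKO replicate 3 (0.35, adjusted p 0.0550) and with variances shrunk without an intensity trend (adjusted p 0.0629).

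In the ligase complex *Lig4* and *Nhej1* were lower and *Xrcc4* did not pass. *Lig4* (Entrez ID 319583, chromosome 8, 9970020 to 9977680, minus strand), the ligase itself, measured 79.3, 84.3 and 89.1 in Ctrl and 35.3, 36.4 and 38.1 in *Upf1*-cKO. Both groups were tight and did not overlap. The mean was 2.30-fold lower, with a log2 fold change of -1.18 (SE 0.090, limma adjusted p 4.29e-09), the smallest p of the 10 and the 311th lowest fold change of all genes.

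*Nhej1* (Entrez ID 75570, chromosome 1, 74967346 to 75125226, minus strand), which encodes the ligase cofactor XLF, was low in both groups. It measured 6.64, 6.82 and 5.01 in Ctrl and 3.07, 4.19 and 3.75 in *Upf1*-cKO, from 31 to 67 recovered reads a library. The groups did not overlap, and the log2 fold change was -0.61 (SE 0.20, limma adjusted p 0.0132). The call was lost on total reads (-0.45, adjusted p 0.0639) and without *Upf1*-cKO replicate 1 (-0.52, adjusted p 0.0611).

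*Xrcc4* (Entrez ID 108138, chromosome 13, 89848914 to 90089608, minus strand), the scaffold that binds and stabilises the ligase, measured 6.64, 7.32 and 9.88 in Ctrl and 13.1, 8.61 and 11.1 in *Upf1*-cKO. The groups overlapped, through Ctrl replicate 3 and *Upf1*-cKO replicate 2. The log2 fold change was 0.42 (95% interval 0.029 to 0.80, limma adjusted p 0.0658). It passed the threshold on total reads (0.60, adjusted p 0.0128), without Ctrl replicate 3 (0.56, adjusted p 0.0205) and without *Upf1*-cKO replicate 2 (0.56, adjusted p 0.0291).

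**Figure D3:**
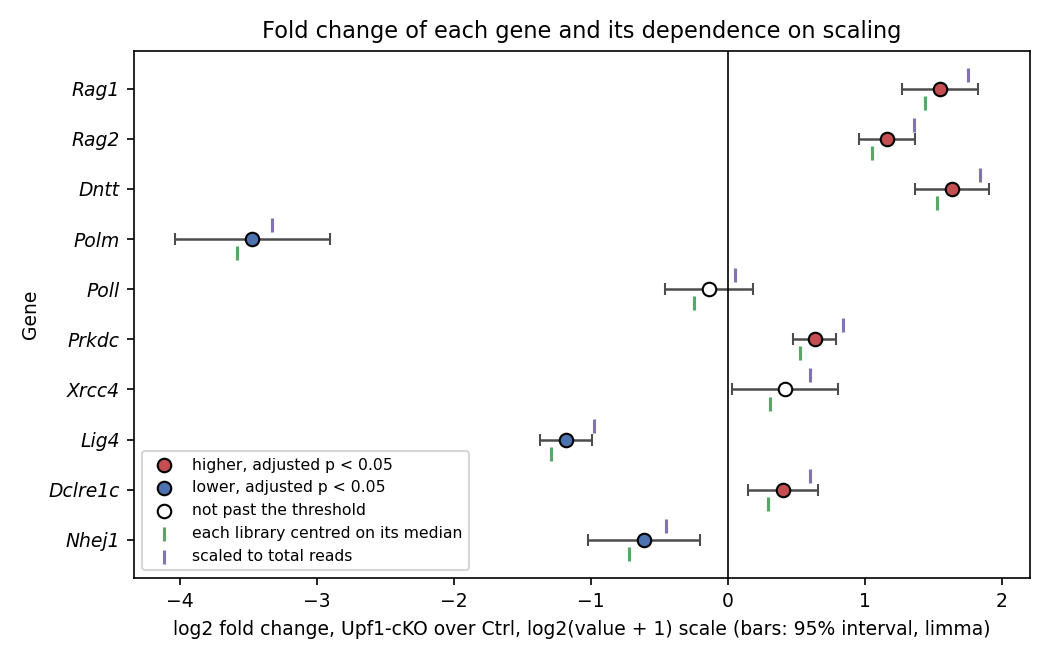
Log2 fold change of each gene, *Upf1*-cKO over Ctrl, on the log2(value + 1) scale (points, n = 3 libraries per group), with 95% intervals from limma and ticks for the values after median centring and on total reads. *Polm* stands at -3.47, and *Poll* is the gene whose sign depends on the scaling (-0.14 as reported, 0.055 on total reads).

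Levels were compared between genes per kb of the longest annotated transcript. In Ctrl the order from highest to lowest was *Dntt* (79.9 ± 14.5 normalised reads per kb, SD, n = 3), *Lig4* (16.8), *Polm* (12.1), *Prkdc* (11.9), *Rag1* (10.8), *Rag2* (8.48), *Poll* (6.98), *Dclre1c* (6.11), *Nhej1* (5.85) and *Xrcc4* (2.32). *Dntt* was above all others, and neighbours from *Polm* to *Rag2* and from *Poll* to *Nhej1* overlapped between libraries. In *Upf1*-cKO the order was *Dntt* (248 ± 23.0), *Rag1* (31.4), *Rag2* (19.4), *Prkdc* (18.5), *Dclre1c* (8.04), *Lig4* (7.28), *Poll* (6.29), *Nhej1* (3.49), *Xrcc4* (3.20) and *Polm* (0.82). Here *Rag2* overlapped *Prkdc*, *Dclre1c* overlapped *Lig4*, *Lig4* overlapped *Poll*, and *Nhej1* overlapped *Xrcc4*. *Polm* went from 12.1 per kb in Ctrl, below only *Dntt* and *Lig4*, to the lowest of the 10, with no overlap with *Xrcc4*, the gene above it.

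**Figure D4:**
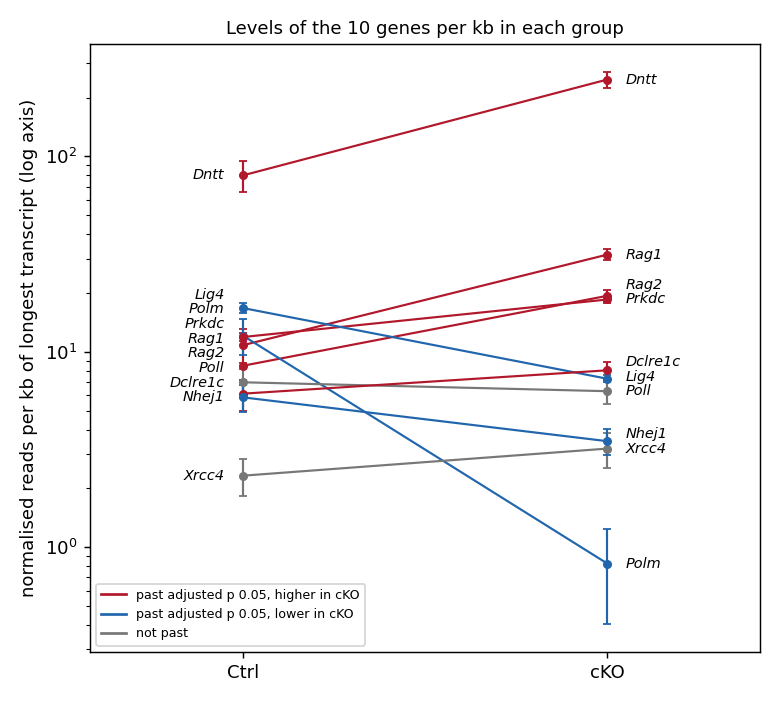
Mean normalised reads per kb of the longest transcript (vertical log axis, bars ± SD, n = 3) of the 10 genes in Ctrl and *Upf1*-cKO, with gene names set in order of level. *Dntt* is highest in both groups, at 79.9 and 248, and *Polm* crosses from 12.1 to 0.82.

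Per the methods reads were aligned without strand, and the strand and overlap settings of the counting are not given in the sources used here, so the part of overlapping genes in these rows was not tested. *Iftap* (also named *B230118H07Rik*) overlaps *Rag2* in the annotation and shares 208 exonic bases with it, 6.07% of the *Rag2* exons, and 80 with *Rag1* (1.21%). Its own row was 3.41 ± 1.96 in Ctrl and 2.17 ± 0.32 in *Upf1*-cKO (limma adjusted p 0.30). *Suv39h2* shares 357 bases with *Dclre1c* (3.83%) and was 26.6 ± 2.27 and 25.8 ± 2.77 (adjusted p 0.776). *Tmem167* shares 112 bases with *Xrcc4* (2.66%) and went from 107 ± 7.03 to 83.1 ± 2.54 (adjusted p 0.00116, lower, a call lost on total reads at 0.124). The rows of *Dntt*, *Polm*, *Poll*, *Prkdc*, *Lig4* and *Nhej1* share no annotated exonic base with another gene.

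Genes close to these loci had their own differences. *Traf6*, 28.9 kb beyond *Rag1*, was 73.2 ± 8.68 in Ctrl and 67.0 ± 4.77 in *Upf1*-cKO (adjusted p 0.313) beside the rise of *Rag1* and *Rag2*. *C330026H20Rik*, 17.6 kb before *Dntt*, was 3.16 ± 0.58 in Ctrl and 7.40 ± 1.18 in *Upf1*-cKO (1.01, adjusted p 0.000271), higher as *Dntt* was, and *Tm9sf3*, 151 kb beyond *Dntt*, did not pass (-0.15, adjusted p 0.0965) but passed as lower after median centring (-0.26, adjusted p 0.00641). *Mcm4*, a replicative helicase gene 0.044 kb from *Prkdc*, had a log2 fold change of -1.14 (adjusted p 6.53e-10) where *Prkdc* rose. *Dpcd*, 0.019 kb from *Poll*, rose by 1.01 (adjusted p 1.67e-07), and *Gm19639*, 5.93 kb away on the other side, was lower (-1.97, adjusted p 4.12e-07). *Hspa14*, 14.6 kb from *Dclre1c*, was lower (-0.71, adjusted p 8.23e-06). *Mzt2*, 6.20 kb from *Prkdc*, and *Cnppd1*, 10.5 kb from *Nhej1*, did not pass (adjusted p 0.174 and 0.839). *Abhd13*, 0.037 kb from *Lig4*, fell by 0.46 (adjusted p 0.000360). The nearest rows to *Polm*, *Pgam2* and *Aebp1*, lie 24.1 and 23.0 kb away and were both at 5.15 normalised reads or less in every library, with *Aebp1* lower (-0.65, adjusted p 0.0175, lost on total reads at 0.0580).

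Other genes of the pathway were taken by list. Of 72 genes in 6 lists, 20 were higher (27.8%, beside 27.7% of all genes) and 27 lower (37.5%, beside 25%) at a limma adjusted p of 0.05, with a median log2 fold change of -0.061 beside 0.01 for all genes. The split was 17 to 33 after median centring and 32 to 18 on total reads. The counts of each list below are read beside the same shares of all genes, 27.7% higher and 25% lower.

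Of 11 end-joining partners, 4 were higher and 4 lower (median -0.12), and on total reads 4 and 2. *Paxx*, a paralogue of XRCC4 and XLF that binds Ku, went from 10.5 ± 1.29 to 35.0 ± 2.72 (log2 fold change 1.65, adjusted p 5.90e-09), and *Tdp2* (0.59) and *Aptx* (0.54), which clean blocked DNA ends, were higher. Both Ku subunits were lower, with log2 fold changes of -0.43 for *Xrcc5* and -0.29 for *Xrcc6* (adjusted p 0.00367 and 0.00297). On total reads these were -0.23 and -0.086, and neither call held (adjusted p 0.101 and 0.420). *Hmgb1* (-0.67) and *Hmgb2* (-0.77), DNA-bending proteins that assist RAG binding, were lower in every *Upf1*-cKO library than in every Ctrl library.

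Of 16 genes of the break response, 15 had a row, with 5 higher and 3 lower (median 0.16). This split was 4 to 5 after median centring and 9 to 1 on total reads. *Trp53bp1*, which protects broken ends from resection, went from 98.7 ± 2.38 to 194 ± 5.81 (log2 fold change 0.97, adjusted p 5.16e-09), and *Mre11a* (0.69) and *Rnf8* (0.57) were higher. *H2ax*, the histone variant phosphorylated around breaks, went from 557 ± 46.2 to 262 ± 6.88 (-1.08, adjusted p 1.29e-09), and *Mdc1* (-0.30) and *Rif1* (-0.23) were lower, calls that were lost on total reads (adjusted p 0.361 and 0.829). *Atm*, the kinase that responds to RAG breaks, measured 171 ± 2.92 and 194 ± 6.78 (0.18, adjusted p 0.0450). Its call was lost after median centring (0.071, adjusted p 0.417), without any single library other than Ctrl replicate 1 (adjusted p up to 0.168, without *Upf1*-cKO replicate 1) and with the replicate block (adjusted p 0.0686).

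Of 11 genes of alternative end joining, which ligates ends without the classical ligase complex, 3 were higher and 2 lower (median 0.17), and on total reads 8 and 2. *Rad52*, a DNA annealing protein, went from 14.1 ± 1.77 to 55.2 ± 4.03 (1.90, adjusted p 3.12e-10), and *Parp2* (0.52) and *Xrcc1* (0.42) were higher. *Lig1*, the replicative ligase, went from 474 ± 15.0 to 256 ± 10.3 (-0.88, adjusted p 7.15e-09), and the flap nuclease gene *Fen1* was lower (-0.80). *Polq*, the polymerase of this pathway, measured 171 ± 19.6 and 174 ± 3.92 and *Lig3* 74.8 ± 6.36 and 86.0 ± 5.21, neither past the threshold (adjusted p 0.745 and 0.0658), though both passed as higher on total reads (0.24, adjusted p 0.0474, and 0.40, adjusted p 0.000958).

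Of 10 other DNA polymerase genes, 3 were higher and 2 lower (median 0.074), and on total reads 5 and 2. *Poli* (16.1 ± 0.79 to 33.5 ± 1.47, 1.01), *Primpol* (0.70) and *Polk* (0.54) were higher, and *Polh* (-0.66) and the replicative *Pold1* (-0.44) were lower. The lowest of these, *Polh*, went from 142 ± 15.5 to 89.5 ± 3.85 (adjusted p 5.05e-06). *Polh*, like the 3 higher genes, acts at damaged templates or stalled forks, so genes of this role went both ways.

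Of 14 genes for transcription factors that act on the *Rag* or *Dntt* loci, 4 were higher and 8 lower (median -0.30). The split was 3 to 9 after median centring and 5 to 5 on total reads. *Erg* had the largest rise, from 38.7 ± 4.53 to 184 ± 3.04 (2.23, adjusted p 1.11e-12), followed by *Satb1* (0.68) and *Foxo1* (113 ± 23.4 to 148 ± 11.3, 0.41, adjusted p 0.00968), an activator of the *Rag* genes whose groups overlapped and whose call was lost without Ctrl replicate 2 (adjusted p 0.0787). *Ikzf1*, which encodes Ikaros, went from 1151 ± 37.9 to 473 ± 9.18 (-1.28, adjusted p 2.66e-11), and *Bach2* from 878 ± 97.1 to 296 ± 13.7 (-1.56, adjusted p 2.45e-11). *Gfi1b*, a repressor of the *Rag* genes, was lower at 7.24 ± 0.73 and 2.63 ± 0.96 (-1.22, adjusted p 0.000113). *Ebf1* and *Pax5*, B lineage factors, did not pass (0.033 and -0.12, adjusted p 0.772 and 0.218), but *Ebf1* passed as higher on total reads (0.24, adjusted p 0.0481) and *Pax5* as lower after median centring (-0.23, adjusted p 0.0233).

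RAG2 protein is marked for destruction by cyclin A with CDK2 as cells enter S phase, through SKP2. Of 11 genes for RAG2 turnover, RAG1 turnover and the cell cycle kinase, 8 were lower and 1 higher (median -0.43), 9 and 0 after median centring and 6 and 1 on total reads. *Cdk2* went from 129 ± 5.26 to 73.5 ± 2.97 (-0.81, adjusted p 1.26e-07), *Ccna2* from 428 ± 8.45 to 267 ± 9.96 (-0.68, adjusted p 1.90e-07) and *Ccne2* from 41.4 ± 3.99 to 27.8 ± 1.67 (-0.56). *Skp2* was lower as well (-0.43), and *Dcaf1*, part of a ligase that acts on RAG1, was higher (0.22, adjusted p 0.0177), a call lost after median centring (adjusted p 0.201) and without either *Upf1*-cKO replicate 1 or 2 (adjusted p up to 0.106). These are RNA levels, and protein levels of RAG1 and RAG2 were not measured in these files.

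**Figure D5:**
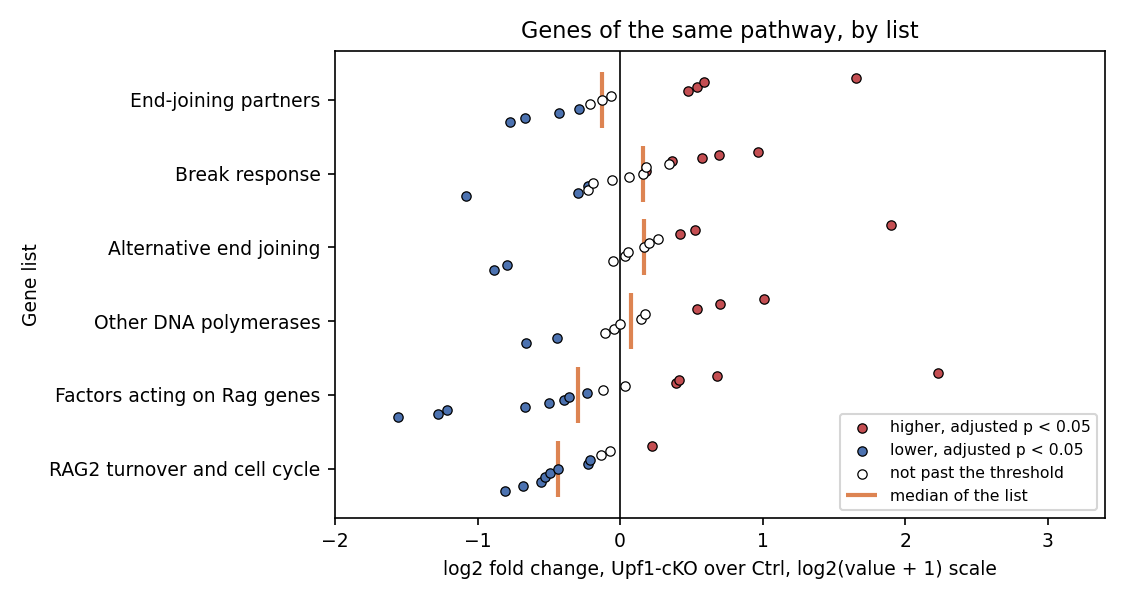
Log2 fold changes (*Upf1*-cKO over Ctrl, log2(value + 1) scale) of the 72 genes of the 6 lists, each point 1 gene, with the median of each list as a bar. The medians run from -0.43 for RAG2 turnover to 0.17 for alternative end joining, and *Erg* (2.23), *Rad52* (1.90) and *Paxx* (1.65) are the points farthest to the right.

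As a description, each of *Rag1*, *Rag2*, *Dntt* and *Polm* was compared with 9201 genes of mean log2 value of at least 3 over the 6 libraries. The closest patterns by Pearson correlation of log2(value + 1) were *Stat5b*, *Emp1* and *Cul9* for *Rag1* (r 0.997 or higher), *Iscu*, *Uggt1* and *Rasa3* for *Rag2*, *Gna15*, *Slc25a24* and *Usp30* for *Dntt*, and *Lsm14b*, *Traf5* and *Snrnp40* for *Polm*. Genes with r of at least 0.95 numbered 964, 1262, 1013 and 946, and the libraries and the split into groups are shared by all of these values. The log2 fold changes of the 3 genes nearest to *Polm* were smaller than its own, at -0.59 for *Lsm14b*, -1.15 for *Traf5* and -0.29 for *Snrnp40*.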

How the data were processed

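RNA was sequenced from sorted early LPre-B cells in 6 libraries, grouped as 3 Ctrl and 3 *Upf1*-cKO by the genotype in the labels. Per the labels and methods, RNA was depleted of ribosomal RNA, prepared with a directional kit, trimmed with cutadapt 4.0, aligned to mm10 with HISAT2 (single end, without strand), counted per gene with featureCounts 2.0.1 and tested with limma 3.48.0. The authors deposited 1 table of a linear signal for 13426 genes. Adding 0.5 to the read count and dividing by a scaled library size gives each value, and whole reads were recovered for 100% of values (tolerance 0.1 of the added 0.5 read).

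Members were found by Entrez ID, and 13008 IDs were named from RefSeq (GRCm38.p6). Exons came from GENCODE M21. The test was limma (version 3.58.1, R 4.3.3) with a robust intensity trend, fitted to log2(value + 1) by group, and p-values were adjusted over all genes by Benjamini-Hochberg. Adjusted p-values in the text are limma's. The 3 within-library ratios were compared by an exact permutation test. Alternatives were other pseudocounts, minimum levels, median centring, total reads, no trend, voom, edgeR 4.0.16 and DESeq2 1.42.0 on recovered reads, the replicate block and leaving out each library. Replicates of a group differed by more than counting error (chi-square of 4.39 to 22.0 per degree of freedom).

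The genes, lists and tests were chosen with earlier results of these data known. Named are all 10 genes, up to 3 genes past the threshold per list and direction, the nearest neighbours with a row (those more than 30 kb away are left out except for *Dntt*), the 3 most alike genes for *Rag1*, *Rag2*, *Dntt* and *Polm*, markers and *Upf1*. *Xrcc6*, *Atm*, *Polq*, *Lig3*, *Ebf1*, *Pax5*, *Skp2*, *Gas5*, *Snhg12* and *Snhg15* lie outside this rule and were added after their values were seen. Reads are not independent molecules, so counting error is a lower limit. Protein sequences were not used here.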

Additional observations from a re-analysis of the deposited data

How the results depend on the processing

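*Rag1*, *Rag2*, *Dntt*, *Polm*, *Prkdc* and *Lig4* kept their direction and call under all 17 alternatives each. Over the 10 genes, 160 alternative fits kept direction and side of the threshold, 5 fell short of it and 3 newly passed it (values beside *Dclre1c*, *Nhej1* and *Xrcc4* in the text), and 1 turned sign, *Poll* on total reads at 0.055. With total reads, 1936 genes were lower in place of 3351, and 32 genes of the pathway lists were higher in place of 20. Scaling to total reads moves the median of all genes to 0.19, and these totals include the largest row, whose share of reads differed between the groups. When the log2 fold change also had to reach 1 in size, a rule added after seeing the data, 3 of the 10 genes higher, 1007 of all genes higher and 475 lower were called, since this rule only removes calls. Leaving out each library in turn gave 4 to 6 of the 10 genes higher and 2 to 3 lower, 3224 to 3643 of all genes higher and 2867 to 3350 lower, and ratio differences of 0.23 to 0.49 for *Rag1* to *Rag2*, 5.18 to 5.93 for *Dntt* to *Polm* and -4.21 to -3.46 for *Polm* to *Poll*. A minimum mean log2 value of 3 removes *Nhej1*, and the other calls were the same. On recovered reads edgeR called 3651 genes higher and 3343 lower.

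The labels number replicates 1 to 3 in each group without saying that a number marks a shared litter or day, and the sample names give same-numbered Ctrl and *Upf1*-cKO libraries consecutive serial numbers. Same-numbered libraries did not deviate together (correlations of 0.082, -0.030 and -0.021), and not every library correlated best with its own number. With the replicate block, 5 of the 10 genes were higher and 3 lower, 3668 and 3321 of all genes, and the ratio differences gave exact p = 0.25, the smallest that 3 pairs allow. With 3 libraries a group, precision is limited most for *Polm* in *Upf1*-cKO, *Nhej1* and *Xrcc4*, which rest on at most 134 reads a library.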
